A study of Mus musculus with 9 samples.

Results

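The mitosis genes are 32 mouse genes whose products work in cell division, taken from a fixed list of symbols: entries of the table whose RefSeq accession maps to one of the symbols were taken, and entries of the same symbol were added. Of these 32 genes, 29 had an entry among the 14771 named genes of the series. A filter on low values, at least 10 normalized reads in at least 3 libraries, kept 25 of them and 10576 genes in all. Aurka, Ttk, Cenpa and Kif20a did not pass it, and Bub1, Tpx2 and Prc1 are not analysed here.

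RNA was sequenced from 9 mouse libraries, 3 in each of 3 groups. The AG libraries came from astroglia of strain C57BL/6 with the genotype label p53 DN and Nf1 shRNA. The BS and OB libraries came from tumour cells of the brainstem and of the olfactory bulb, on a mix of 129 and C57BL/6, labelled with Foxr2 overexpression and a p53 cko allele. A change of p53 is thus named for every group, by different means. The labels give no age, no treatment and no promoter or Cre line, and do not say whether libraries of a group are separate animals or cultures. The p-values therefore measure only the spread between these libraries. Their counts differed by more than sampling noise, with a chi-square per degree of freedom of 4.41 to 10.4 between AG libraries and 81.7 to 221 between tumour libraries of 1 site; whether the smaller spread in AG is technical was not tested. Strain, genotype and cell source all change at once from AG to the tumour cells and cannot be told apart. In bulk RNA, fewer dividing cells and less RNA per dividing cell cannot be told apart either.

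Cells enter mitosis when CDK1, bound to cyclin A or cyclin B, is switched on, and the kinases Polo and Aurora then drive spindle assembly. Kinetochores tie chromosomes to spindle microtubules, and the spindle checkpoint holds the anaphase-promoting complex (APC/C) in check until all are attached. APC/C then marks cyclin B and securin for destruction, and the spindle midzone and a contractile ring split the cell. Many of these genes are transcribed in a wave in late cell cycle through the MuvB complex with B-MYB and FOXM1. These act at promoters with a cell cycle genes homology region (CHR), often beside CCAAT boxes bound by NF-Y.

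Promoter windows of 300 bases, from 250 bases before to 50 bases after the start site, were taken from RefSeq (build GRCm38.p6) for 27 of the 32 genes, with 29 windows. Aurkb, Ccna2, Dlgap5, Kif20a and Tpx2 had no window. Windows of 5 genes are shown 5′ to 3′ on the gene's strand: Anln and Kif23, which were lower in both tumour groups, Birc5, the gene called higher, and Cdk1 and Top2a, which were called in neither group. Capitals mark the CHR (TTTGAA, or TTCAAA where it lies on the other strand), its variant TTTAAA, which reads the same on both strands, and the CCAAT box (CCAAT or ATTGG).
Anln: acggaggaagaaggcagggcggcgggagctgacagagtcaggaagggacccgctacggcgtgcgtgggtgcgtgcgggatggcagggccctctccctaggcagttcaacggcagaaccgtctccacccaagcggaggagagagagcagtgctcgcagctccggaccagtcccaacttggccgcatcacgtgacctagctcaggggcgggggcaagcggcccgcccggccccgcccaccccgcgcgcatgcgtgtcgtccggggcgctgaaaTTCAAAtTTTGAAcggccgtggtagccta
Kif23: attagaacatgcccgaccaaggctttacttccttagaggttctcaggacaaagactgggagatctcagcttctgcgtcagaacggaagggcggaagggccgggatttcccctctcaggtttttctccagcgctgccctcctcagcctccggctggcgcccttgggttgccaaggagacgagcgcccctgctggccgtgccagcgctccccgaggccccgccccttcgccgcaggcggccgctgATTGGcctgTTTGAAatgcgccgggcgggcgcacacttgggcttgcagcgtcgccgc
Birc5: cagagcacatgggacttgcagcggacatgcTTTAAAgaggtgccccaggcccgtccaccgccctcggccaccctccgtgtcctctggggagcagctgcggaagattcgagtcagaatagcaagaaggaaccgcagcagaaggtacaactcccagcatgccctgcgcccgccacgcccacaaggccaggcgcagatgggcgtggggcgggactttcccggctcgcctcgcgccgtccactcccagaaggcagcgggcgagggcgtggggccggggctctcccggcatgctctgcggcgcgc
Cdk1: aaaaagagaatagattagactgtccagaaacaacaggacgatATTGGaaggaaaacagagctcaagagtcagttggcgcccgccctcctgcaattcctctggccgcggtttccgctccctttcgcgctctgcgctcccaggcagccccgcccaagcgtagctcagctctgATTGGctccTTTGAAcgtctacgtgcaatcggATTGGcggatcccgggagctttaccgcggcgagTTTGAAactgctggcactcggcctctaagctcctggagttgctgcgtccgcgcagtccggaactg
Top2a: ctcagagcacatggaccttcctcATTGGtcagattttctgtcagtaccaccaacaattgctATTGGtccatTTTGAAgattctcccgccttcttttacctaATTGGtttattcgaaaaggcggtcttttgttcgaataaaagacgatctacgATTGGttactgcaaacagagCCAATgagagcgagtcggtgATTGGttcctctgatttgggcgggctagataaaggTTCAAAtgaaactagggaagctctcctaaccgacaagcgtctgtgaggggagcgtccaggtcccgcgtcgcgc
The windows lie at chr9:22389157-22389456 (minus strand) for Anln, chr9:61946750-61947049 (minus strand) for Kif23, chr11:117848987-117849286 (plus strand) for Birc5, chr10:69352863-69353162 (minus strand) for Cdk1 and chr11:99024140-99024439 (minus strand) for Top2a. In Kif23 a CHR began 2 bases after the start site and a CCAAT box 7 bases before it. Anln had a pair of CHR matches, 21 and 28 bases after the start site on opposite strands, and no CCAAT box. In Cdk1 the CHR matches began 71 and 15 bases before the start site, among 3 CCAAT boxes. Top2a had 6 CCAAT boxes and 2 CHR matches, while the window of Birc5 held only the variant TTTAAA, 220 bases before the start site.

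Across the mitosis genes, TTTGAA was found on either strand in 79.31% of windows (21 of 27 genes), against 17.89% of 32851 windows of all genes. The variant TTTAAA was found in 31.03% of windows (9 of 27 genes) against 13.16%, and CCAAT in 79.31% (21 of 27 genes) against 37.41%. At least 1 of the CHR forms together with a CCAAT box stood in 75.86% of windows (20 of 27 genes) against 10.73% of all windows. Neither CHR form was in the windows of Bub1, Nuf2 and Nusap1. These matches describe letters and are not measured binding sites. The genes that were lower in the tumours and those that were not called both carried them, as the printed windows show.

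**Figure D1:**
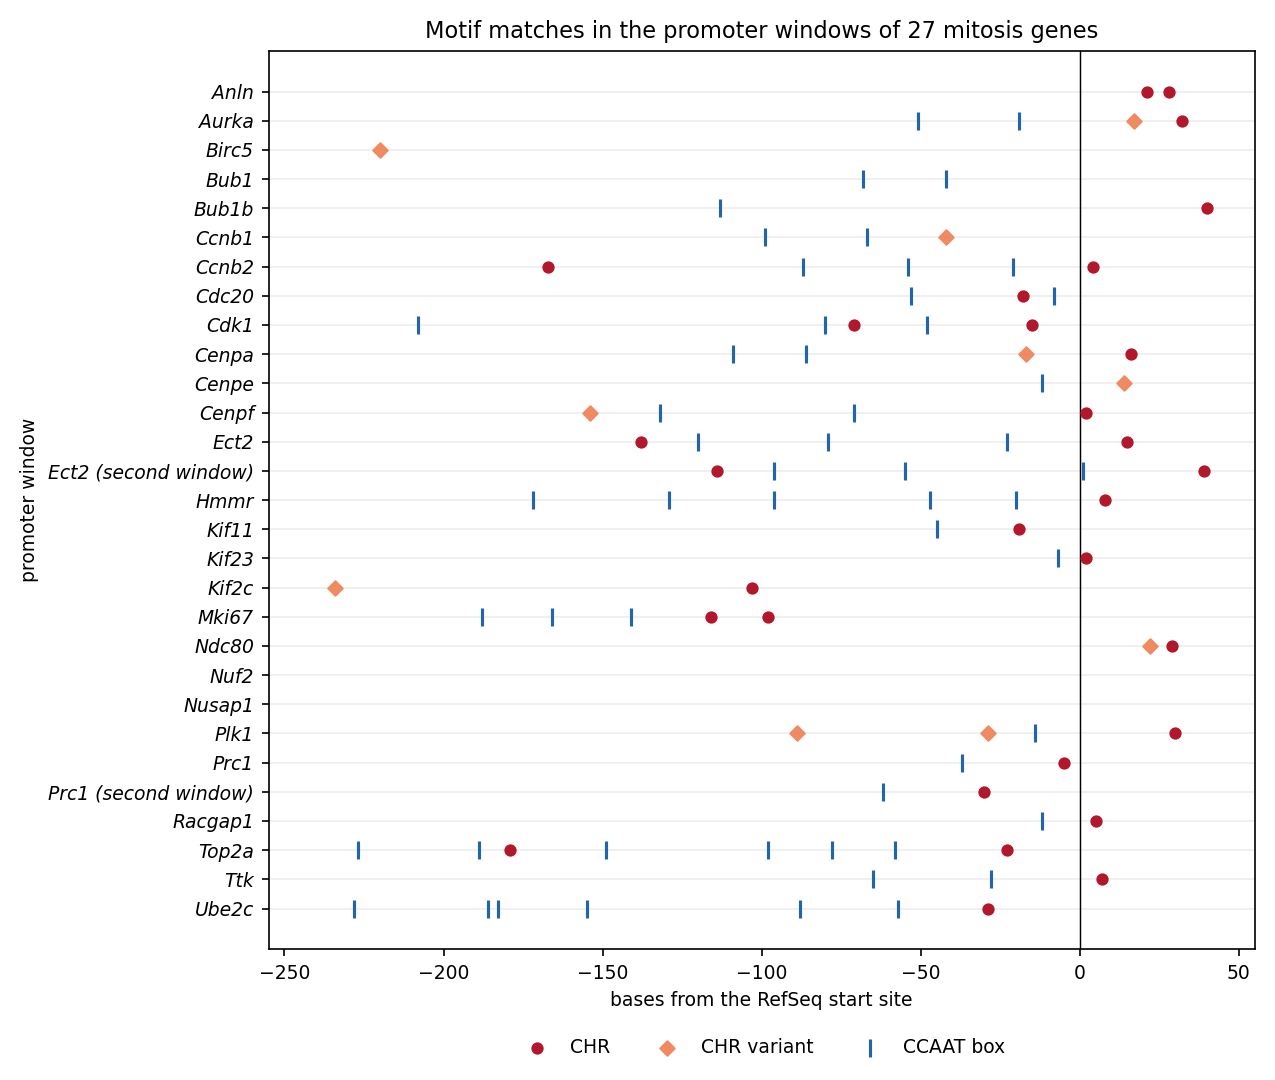
Positions of CHR (TTTGAA), CHR variant (TTTAAA) and CCAAT matches on either strand in 29 promoter windows of 27 mitosis genes, in bases from the RefSeq start site at 0. Most CHR matches lie close to the start site and nearly all CCAAT boxes before it; Nuf2 and Nusap1 have no match.

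Reads counted to the listed transcripts ran from 11300273 to 19868282 per library. Values are these reads divided by 1 size factor per library, called normalized reads below. Foxr2 had 1 read in the 3 AG libraries together and 9526 ± 2707 (SD, n = 3) normalized reads in BS and 5763 ± 1168 in OB (limma adjusted p = 6.26e-07 for both). Levels in this table differ with the number of RefSeq transcripts of a gene: the 19 members with 1 transcript had means of 1476 to 24439.6 (median 3908), whereas the 10 with more that had an entry had a median of 16.7 and at most 430.0. Over all genes the median entry was 258.6 for 1 transcript, 12.6 for 2 and 6.81 for 3 or more, so a low value of a member with several transcripts is not read as low expression. Of the astrocyte markers in AG, Gfap (0.834 to 3.27), Aqp4 (1.09 to 1.97) and Aldoc (0 to 1.09) were at or near 0. Aldh1l1 and Atp1b2 stayed under 10 normalized reads in every AG library, and S100b stood at 25.01 to 27.22. Slc1a3 stood at 753 to 855 and Gja1 at 4961 to 5396, while Acta2, a smooth muscle actin, stood at 52507 to 55942. RefSeq transcript numbers of the astrocyte markers are not given here, so their low values are not read as low expression. Changes were estimated with limma on log2(normalized reads + 1), a scale that understates the change of low genes, and are given ± SE. A gene is called at an adjusted p under 0.05 (Benjamini-Hochberg over 10576 genes).

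Against AG, the mitosis genes that were called were lower in the tumour cells, with Birc5 in BS as the exception. In OB, 5 of the 25 tested genes were lower (Anln, Kif23, Ccnb2, Mki67 and Cenpf) and 0 were higher, where 19.0% of all genes tested were called lower and 16.0% higher. In BS, 4 were lower (Anln, Kif23, Ect2 and Cenpe) and 1 was higher (Birc5), against 19.5% and 15.6% of all genes. The shares called lower are near those of all genes, so the count itself is no result about mitosis genes. Leaving out AG_1, AG_2 or AG_3 left 2 lower genes in each comparison, as did leaving out BS_296 in BS. Without OB_257, 3 lower genes were left in OB. Of all genes, 13.2% to 13.5% were called lower without 1 AG library. The share was 16.8% in BS without BS_296 and 18.9% in OB without OB_257. Of the 25 genes, 10 had every OB library below every AG library and 1 had every OB library above, against 30.8% and 27.5% of all genes. In BS these were 8 below and 2 above, against 31.8% and 26.7%. The median change of the 25 genes was -0.30 in OB and -0.14 in BS on the log2 scale, where all genes had medians of -0.01 and -0.03. Scaling by the upper quartile moved the median of all genes to 0.18 in both comparisons and the calls over all genes from 1687 higher and 2008 lower to 2158 and 1675 in OB, and from 1652 and 2060 to 2135 and 1674 in BS. The members' medians were then -0.10 in OB and 0.07 in BS, both below that of all genes.

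Taken over both tumour groups at once, the mean of BS and OB was lower than AG for 6 genes (Ect2, Anln, Kif23, Ccnb2, Cenpf and Cenpe) and higher for Birc5, against 22.6% and 19.5% of all genes. This comparison shares its libraries with the comparisons by site and adds no independent evidence. In 6 genes all 6 tumour libraries lay below all AG libraries (Cdk1, Mki67, Cenpf, Kif23, Anln and Ect2), and in 0 genes above, against 25.0% and 19.4% of all genes. Without OB_257 and BS_287, which stood lowest for many members, 7 of 25 genes were called lower and 1 higher, where 27.4% and 24.6% of all genes were, a setting chosen after the data were seen. Anln and Kif23 were called in this comparison under all 21 alternatives, Ect2 in 18 of 20, Birc5 in 18, Cenpf in 16, Ccnb2 in 11 and Cenpe in 6. Leaving out AG_1, AG_2 or AG_3 ended the calls of Birc5, Cenpf, Ccnb2 and Cenpe, and leaving out AG_1 or AG_3 that of Ect2, with limma adjusted p-values between 0.0630 and 0.147. Cenpe was also not called without BS_287, BS_296, OB_257 or OB_295 (limma adjusted p = 0.0749, 0.0827, 0.0695 and 0.0816), and Ccnb2 not without BS_295, OB_257 or OB_287 (limma adjusted p = 0.0607, 0.0672 and 0.0638).

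**Figure D2:**
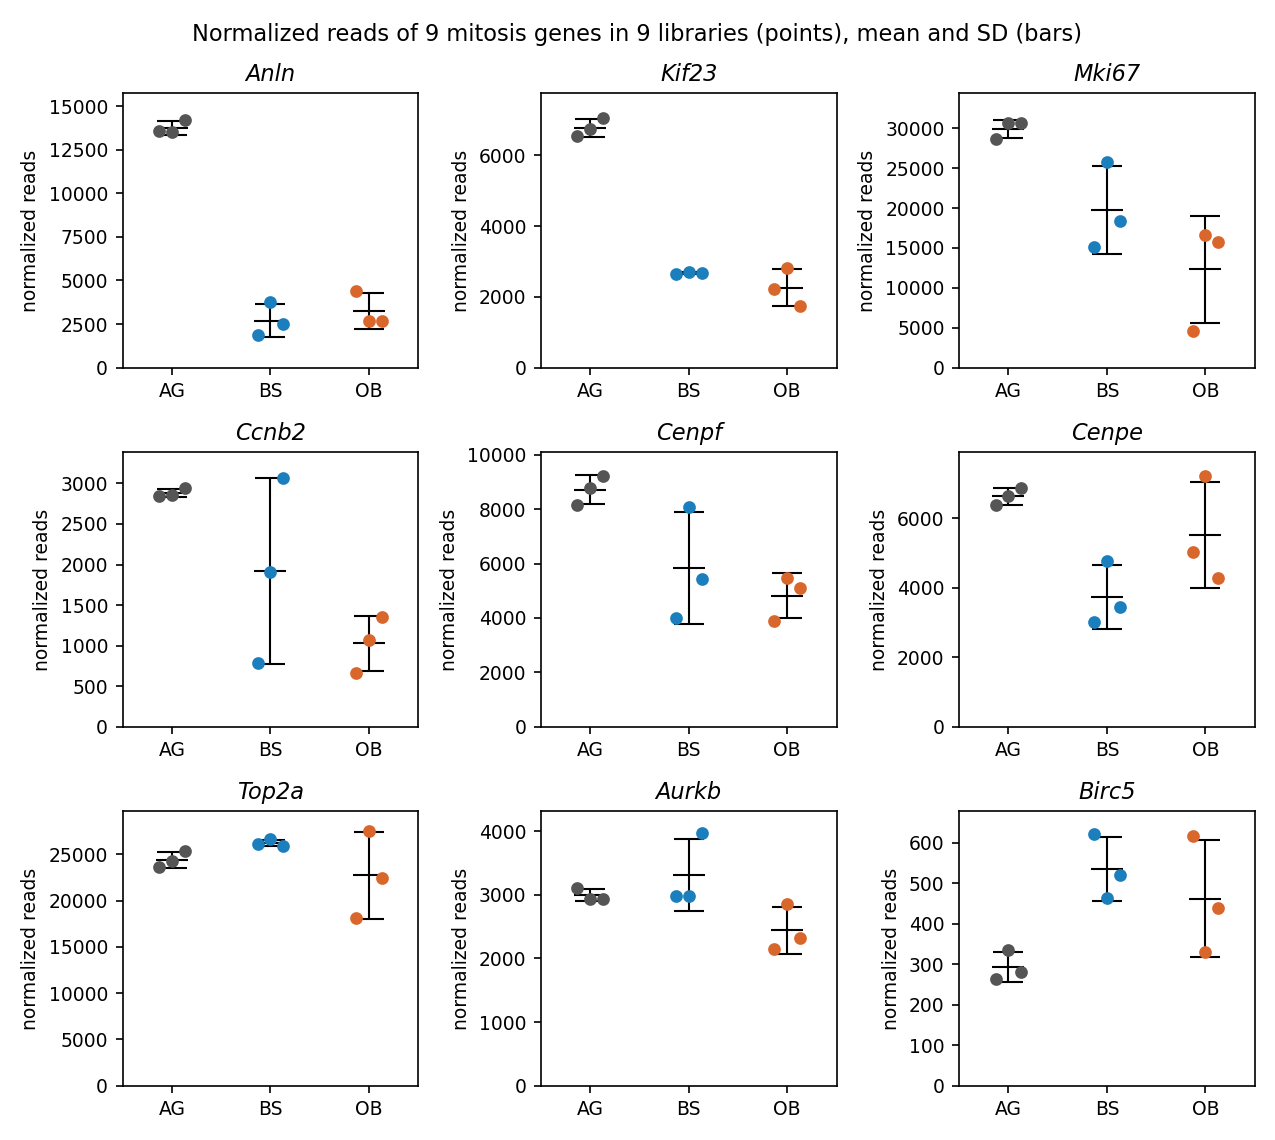
Normalized reads of 9 mitosis genes in the 9 libraries (points) with the mean and SD of each group of 3 (bars), on linear axes from 0. Anln and Kif23 lie far below AG in all 6 tumour libraries, Mki67 in OB_257 stands at 4596, and Top2a in BS (25935 to 26606) lies just above AG (23664 to 25309).

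The largest called changes in BS, and the 2 largest in OB, were in genes of the midzone and the contractile ring. Anln encodes anillin, the scaffold that links actin, myosin and RhoA in the contractile ring. Its values were 13562, 13492 and 14208 normalized reads in AG_1, AG_2 and AG_3. They were 1858, 3744 and 2503 in BS_287, BS_295 and BS_296, and 4418, 2664 and 2654 in OB_257, OB_287 and OB_295. All 6 tumour libraries lay below AG, the highest at 32.1% of the AG mean and the lowest at 13.5%, with no order by site. Anln fell by 2.41 ± 0.28 in BS (5.30-fold, limma adjusted p = 0.000355) and by 2.13 ± 0.28 in OB (4.37-fold, limma adjusted p = 0.000707). Anln was called in both comparisons in all 22 alternatives.

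Kif23 encodes MKLP1, the kinesin of the centralspindlin complex that bundles midzone microtubules and recruits ECT2. Its values were 6550.3, 6756 and 7047 in AG, 2637, 2716 and 2671 in BS, and 2235, 2815 and 1749 in OB, in the order of libraries given above. The BS libraries lay within 1 narrow band at 38.9% to 40.0% of the AG mean, the OB libraries between 25.8% and 41.5%, and neither group overlapped AG. Kif23 fell by 1.34 ± 0.18 in BS (2.54-fold, limma adjusted p = 0.000675) and fell by 1.61 ± 0.18 in OB (3.05-fold, limma adjusted p = 0.000251). Kif23 too was called in all 22 alternatives of both comparisons.

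Ect2, the exchange factor that activates RhoA at the cell equator, had few reads in this table (149 in AG, 27 in BS and 37 in OB). Its values were 53.4, 32.5 and 56.6 in AG, 14.3, 8.53 and 1.97 in BS, and 7.74, 24.7 and 4.35 in OB, with no overlap between AG and the tumours. Ect2 has 3 RefSeq transcripts with 1 entry, so these values do not cover the whole gene. Of the tumour libraries, only BS_287 and OB_287 reached the level of the filter on low values. Ect2 fell by 2.64 ± 0.75 in BS (limma adjusted p = 0.0255). The change in OB was -2.15 ± 0.75 and was not called (limma adjusted p = 0.0546). The BS call ended without AG_1, AG_2 or AG_3 (limma adjusted p = 0.0823, 0.0521 and 0.0846) and without BS_296 (-1.97, adjusted p = 0.0720). The OB change was called without BS_287, BS_296 or OB_287 (limma adjusted p = 0.0428, 0.0334 and 0.0217), with a pseudocount of 5 (0.0302), in a fit of OB and AG alone (0.0389) and by DESeq2 (0.0474).

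Racgap1, the other centralspindlin subunit, ran from 19.7 to 27.5 in AG, between 21.8 and 28.8 in BS and between 13.3 and 26.1 in OB. These ranges overlap, and the changes of 0.17 ± 0.37 in BS and -0.27 ± 0.37 in OB were not called (limma adjusted p = 0.75 and 0.608). Kif20a, a midzone kinesin that carries the Aurora B complex, did not pass the filter, with 2.21 to 14.8 normalized reads in all libraries. Of 4 tested genes of this group, 3 were thus lower in BS and 2 in OB, where 19.5% and 19.0% of all genes were. The group's medians were -1.87 in both, and a count over 4 genes chosen by role is a description. Count and medians mix Anln and Kif23, with 1 RefSeq transcript and high values, with Ect2 and Racgap1. The latter have 3 RefSeq transcripts with 1 entry each, at low values that do not cover the whole gene.

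Mki67 and Top2a are both used as markers of dividing cells, and Mki67 was lower in OB while Top2a was called in neither group. Mki67 encodes Ki-67, which coats mitotic chromosomes and keeps them apart. It stood at 28631, 30616 and 30602 in AG, 15075, 25809 and 18369.7 in BS, and 4596, 16602 and 15737 in OB. All 6 tumour libraries lay below AG, with OB_257 far below the rest at 15.3% of the AG mean. Mki67 fell by 1.49 ± 0.46 in OB (2.82-fold, limma adjusted p = 0.0342), and the change in BS, -0.64 ± 0.46, was not called (limma adjusted p = 0.315) except without OB_257 (0.0338) or in a fit of BS and AG alone (0.0459).

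The size of the Mki67 change in OB rested on OB_257: without that library it was -0.89 (1.85-fold, limma adjusted p = 0.0160). The call with all libraries ended without AG_1, AG_2 or AG_3 (limma adjusted p = 0.0871, 0.0940 and 0.0950), without BS_296 (0.0508), with edgeR (0.0526), with upper-quartile or quantile scaling (0.0505 and 0.124) and in a fit of OB and AG alone (0.0558).

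Top2a encodes topoisomerase II alpha, which untangles sister chromatids. Its values were 23664, 24225 and 25309 in AG, 26103, 26606 and 25935 in BS, and 18158, 27469.5 and 22487 in OB. Every BS library lay slightly above AG, whereas the OB libraries lay on both sides of it. The changes were 0.10 ± 0.16 in BS (95% interval -0.27 to 0.47, limma adjusted p = 0.653) and -0.12 ± 0.16 in OB (-0.49 to 0.25, limma adjusted p = 0.589). Quantile normalization alone called it higher in both, by 0.67 in BS (limma adjusted p = 0.0115) and 0.47 in OB (limma adjusted p = 0.0479).

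**Figure D3:**
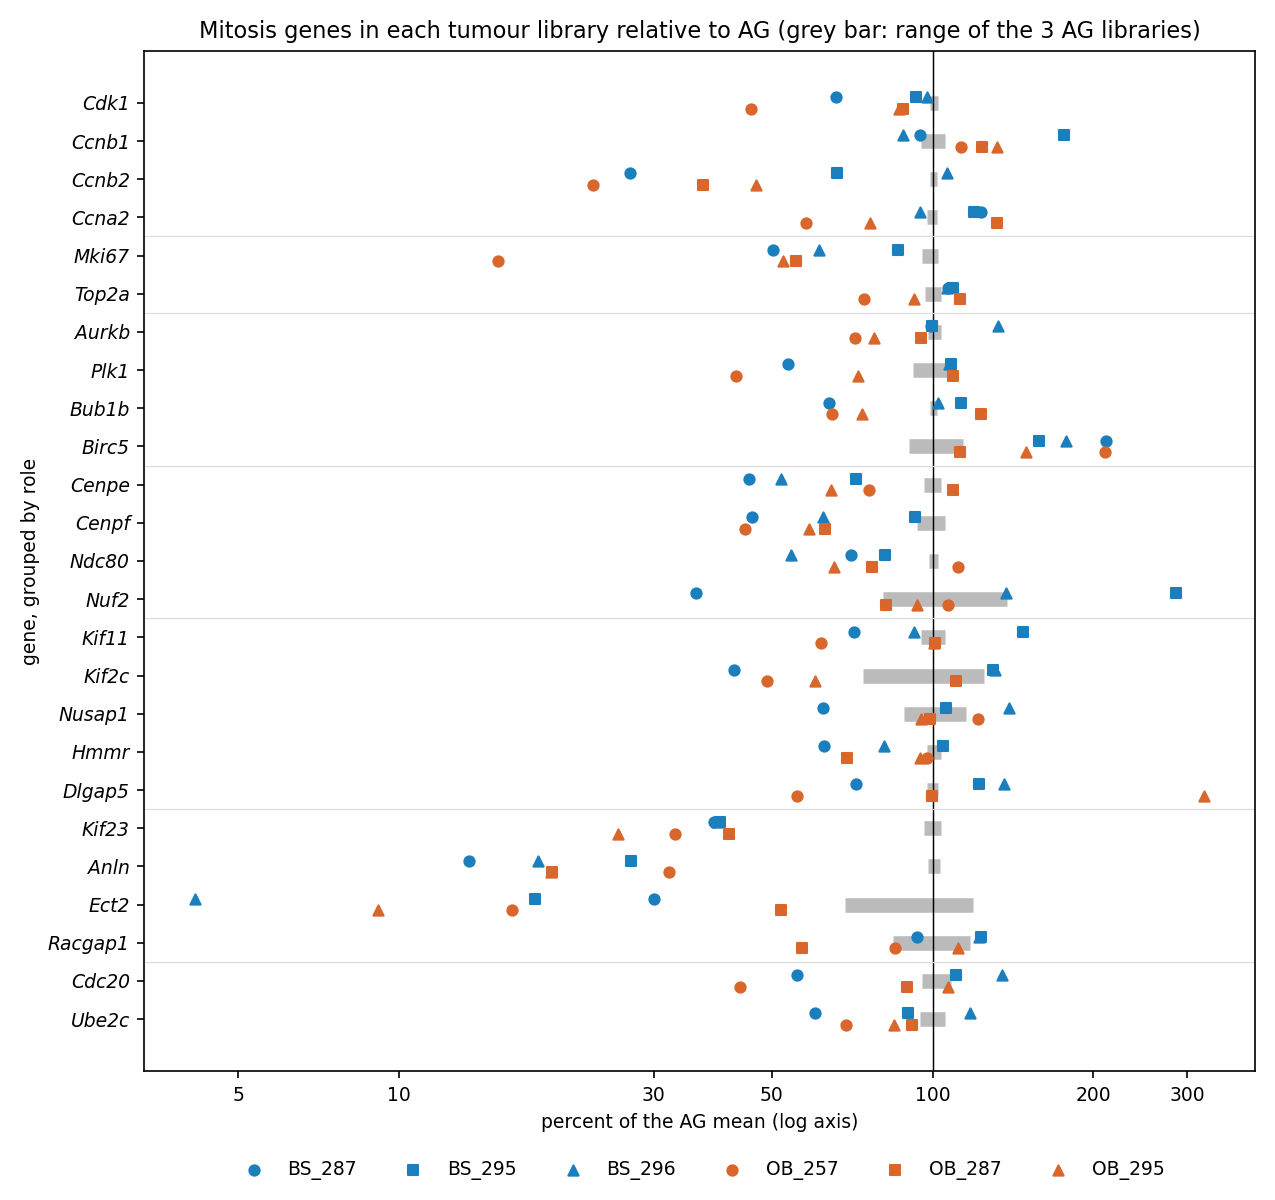
Each mitosis gene that passed the filter in each tumour library as a percent of its AG mean, on a log axis; the grey bar is the range of the 3 AG libraries and grey lines part the roles. Anln, Kif23 and Ect2 lie left of AG in all 6 tumour libraries, and the circles of BS_287 and OB_257 are often the leftmost points of the other genes.

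Of the 3 cyclins and CDK1, Ccnb2 alone was called. Ccnb2, a B-type cyclin, stood at 2847, 2861 and 2943 in AG, 782, 1912 and 3070.0 in BS, and 666, 1069.7 and 1348 in OB. Every OB library was below AG, while BS_296 was above it and BS_287 far below. Ccnb2 fell by 1.55 ± 0.46 in OB (2.92-fold, limma adjusted p = 0.0314), and the change in BS was -0.79 ± 0.46 (limma adjusted p = 0.218). The OB call ended without AG_1, AG_2 or AG_3 (limma adjusted p = 0.0853, 0.0846 and 0.0886), without OB_257 (0.0826) or OB_287 (0.0587), and with quantile normalization (0.0531).

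Ccnb1, the cyclin B1 that carries CDK1 into the nucleus at mitotic entry, stood at 1363, 1428 and 1511 in AG, 1356, 2532 and 1261 in BS, and 1622, 1774 and 1891 in OB. Every OB library lay above AG, but the change of 0.30 ± 0.26 was not called (limma adjusted p = 0.403), nor was that of 0.19 ± 0.26 in BS (0.608). It was the 1 member with every OB library above AG, whereas Ccnb2 had every OB library below AG.

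Cdk1, the kinase itself, stood at 7740.1, 7761 and 8024 in AG, 5159.5, 7311 and 7649 in BS, and 3578, 6915 and 6795 in OB. All 6 tumour libraries lay below AG, most by little and OB_257 (45.6% of the AG mean) and BS_287 (65.8%) by more. The changes of -0.25 ± 0.27 in BS and -0.51 ± 0.27 in OB were not called (limma adjusted p = 0.514 and 0.180). Ccna2, or cyclin A2, which acts from S phase to early mitosis, ran from 8044 to 8397 in AG, between 7779 and 10149.6 in BS and between 4764 and 10871 in OB. Its changes were 0.16 ± 0.28 in BS and -0.26 ± 0.28 in OB (limma adjusted p = 0.691 and 0.50); without OB_287 the latter was -0.59 and called (0.0407).

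Among the kinases and the chromosomal passenger survivin, Birc5 was the only member of the list called higher in BS. Birc5 encodes survivin, which takes Aurora B to centromeres and midzone. It stood at 264, 334 and 281 in AG, 621, 464 and 521 in BS, and 617, 329 and 439 in OB. All BS libraries were above AG, and OB_287 lay within the AG range. The rise in BS was 0.86 ± 0.26 (1.82-fold, limma adjusted p = 0.0340), and the change in OB, 0.61 ± 0.26, was not called (limma adjusted p = 0.104).

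The BS call of Birc5 ended without AG_1, AG_2 or AG_3 (limma adjusted p = 0.115, 0.0656 and 0.103) and without BS_287 (0.0833) or BS_296 (0.0694), and the OB change was called without OB_287 (0.0352) or with upper-quartile scaling (0.0467). Birc5 has 2 RefSeq transcripts, only 1 of which was in the table, so these values do not cover the whole gene.

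Aurkb, the Aurora kinase of the same passenger complex, was called in neither group. It stood at 3101, 2939 and 2939 in AG, 2978, 2985 and 3969.5 in BS, and 2141, 2852 and 2326 in OB. Every OB library lay below every AG library and every BS library. The changes of 0.13 ± 0.17 in BS and -0.31 ± 0.17 in OB were not called (limma adjusted p = 0.582 and 0.201).

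Plk1, the Polo kinase of mitotic entry and spindle assembly, ran from 3783 to 4551 in AG, and its lowest tumour libraries were OB_257 (1762) and BS_287 (2198). The other tumour libraries ran from 2978 to 4482, and changes of -0.22 ± 0.38 in BS and -0.52 ± 0.38 in OB were not called (limma adjusted p = 0.678 and 0.316). Bub1b, the checkpoint kinase BubR1, ran from 4951 to 5098 in AG, between 3204 and 5671 in BS and between 3242 and 6175 in OB, and was not called either (limma adjusted p = 0.727 and 0.520). Aurka and Ttk, both mitotic kinases, stayed under 10 normalized reads in every library (at most 8.87 and 4.36) and were not tested. Aurka ran from 0 to 2.96 in BS, below every AG library (from 4.17) and every OB library (from 3.26), on 42 reads in all.

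Of the kinetochore genes, Cenpe and Cenpf were called, each in 1 group. Cenpe, the kinesin that moves chromosomes to the metaphase plate, stood at 6389, 6646 and 6875 in AG, 3005, 4772 and 3451 in BS, and 5034, 7233 and 4281 in OB. All BS libraries were below AG, and OB_287 was above it. It fell by 0.85 ± 0.23 in BS (1.81-fold, limma adjusted p = 0.0222), and the OB change of -0.30 ± 0.23 was not called (limma adjusted p = 0.348). The BS call ended without AG_1, AG_2 or AG_3 (limma adjusted p = 0.0631, 0.0697 and 0.0753), without BS_287 (0.0605) or BS_296 (0.0623), without both BS_287 and OB_257 (0.0513), and with upper-quartile (0.0622) or quantile (0.0714) scaling.

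Cenpf, a large protein of the outer kinetochore, stood at 8156, 8770.4 and 9213 in AG, 3999.6, 8076 and 5423 in BS, and 3887, 5467 and 5104 in OB. All tumour libraries were below AG, BS_295 by little. It fell by 0.87 ± 0.25 in OB (1.82-fold, limma adjusted p = 0.0288), and the BS change of -0.64 ± 0.25 was not called (limma adjusted p = 0.0840) but was without BS_295 (-0.90, 0.0142). The OB call ended without AG_1, AG_2 or AG_3 (limma adjusted p = 0.0698, 0.0846 and 0.0938), without OB_257 (0.0725) or OB_295 (0.0551), and with upper-quartile (0.0572) or quantile (0.0834) scaling.

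Ndc80, the microtubule-binding subunit that gives its complex its name, ran from 1725 to 1789 in AG, between 949 and 1425 in BS and between 1142 and 1951 in OB. Every BS library lay below AG, but the change of -0.56 ± 0.23 was not called (limma adjusted p = 0.0942), nor that of -0.28 ± 0.23 in OB (0.385). The BS change was called without OB_257 (limma adjusted p = 0.0395), without both BS_287 and OB_257 (-0.59, 0.0472) and in a fit of BS and AG alone (0.0444). Its partner Nuf2 had 3.35 to 26.7 normalized reads and was not called (limma adjusted p = 0.801 in BS and 0.963 in OB). Cenpa, the centromeric histone, had 0.834 to 10.7 and was not tested.

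None of 5 tested spindle motors and microtubule binders was called against AG in either group. Kif11, the Eg5 motor that pushes spindle poles apart, stood at 5929, 6226 and 6575 in AG, 4448, 9209.7 and 5755 in BS, and 3855, 6321 and 6281 in OB. AG lay inside the BS range, OB_287 and OB_295 lay inside the AG range, and changes of -0.01 ± 0.29 in BS (95% interval -0.68 to 0.65) and -0.22 ± 0.29 in OB (-0.88 to 0.44) were not called (limma adjusted p = 0.976 and 0.587). Hmmr, a spindle assembly factor, ran from 3552 to 3779 in AG, between 2275 and 3811 in BS and between 2517 and 3550.0 in OB, with changes of -0.30 ± 0.22 and -0.22 ± 0.22 (limma adjusted p = 0.311 and 0.474).

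Dlgap5, or HURP, which stabilizes microtubules near chromosomes, ranged widely among the OB libraries. It stood at 2085, 2043 and 2142 in AG, 1505, 2554 and 2849 in BS, and 1164, 2085 and 6749 in OB. OB_295 held 322.9% of the AG mean while OB_257 held 55.7%. The OB change was 0.28 ± 0.56 (limma adjusted p = 0.732); it was -0.42 without OB_295 and 0.84 without OB_257 and BS_287, not called in either. Kif2c, a microtubule depolymerase, ran from 53.7 to 166 and Nusap1, a spindle bundling protein, from 107 to 239 across all libraries, with no call (limma adjusted p = 0.484 to 0.948).

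The APC/C activators were not called. Cdc20, the activator that the checkpoint inhibits, stood at 4146, 3686 and 3669 in AG, 2138, 4250.1 and 5171 in BS, and 1673, 3431 and 4100.5 in OB. BS_287 and OB_257 were low and the other tumour libraries near or above AG, with changes of -0.08 ± 0.40 in BS and -0.42 ± 0.40 in OB (limma adjusted p = 0.887 and 0.449). Ube2c, the ubiquitin-conjugating enzyme of APC/C, ran from 3533 to 3938 in AG, between 2242 and 4371 in BS and between 2567 and 3403 in OB, where every library was below AG. Its changes were -0.22 ± 0.24 and -0.30 ± 0.24 (limma adjusted p = 0.519 and 0.364).

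**Figure D4:**
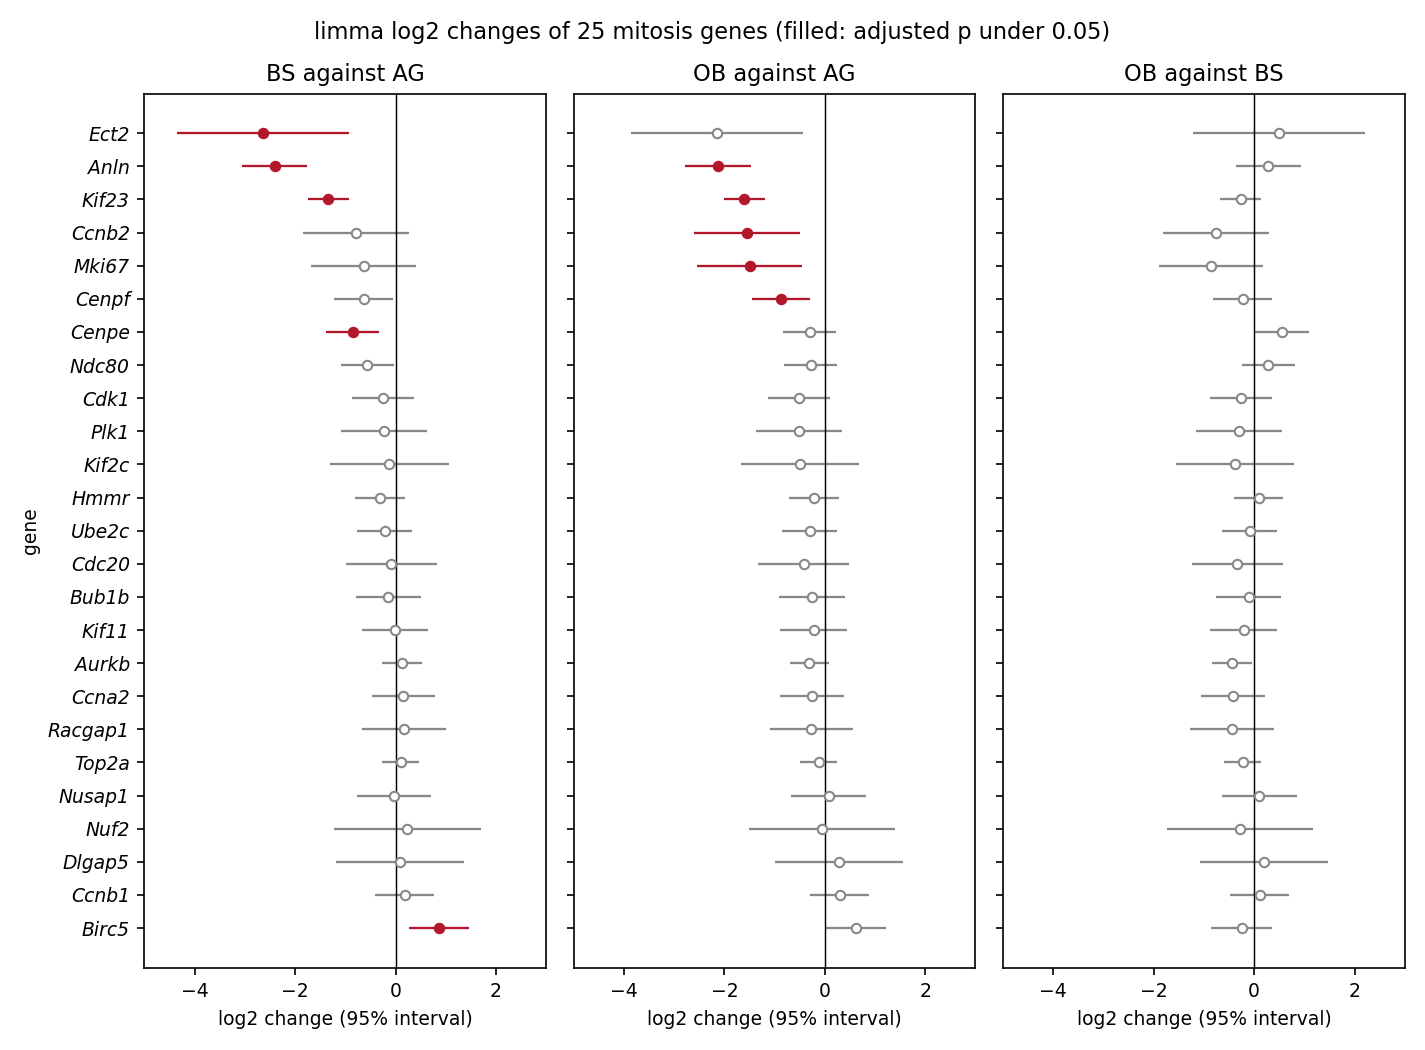
limma log2 changes of the 25 tested mitosis genes with 95% intervals, for BS against AG, OB against AG and OB against BS; filled red points were called. The called genes lie below 0 except Birc5 in BS (0.86), and in OB against BS all points are open.

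Tumour libraries of the same site differed widely from one another. Over the 19 members with 1 transcript, the median percent of the AG mean was 57.9% in OB_257 and 62.5% in BS_287, against 91.3% in OB_287, 76.3% in OB_295, 99.7% in BS_295 and 94.5% in BS_296. Over all genes that median ran only from 93.7% to 97.4% in the 6 libraries. OB_257 was the lowest tumour library for 11 of the 25 genes and BS_287 for 8, while over all genes they were lowest for 25.4% and 22.0%. In BS_287, 20 of the 25 genes were below every AG library and in OB_257 19, against 10 to 17 in the other tumour libraries; over all genes 47.0% and 46.6% were, and 44.8% to 46.4% in the others. With both left out, the median change of the 25 genes was -0.19 in OB and 0.11 in BS, so its sign in BS turned. The 5 lower genes of OB were called again, and in BS Anln, Kif23 and Ect2 again with Ndc80 in the place of Cenpe, where 23.7% and 24.4% of all genes were called lower. Cell markers set these libraries apart in part: Sox10, an oligodendrocyte lineage factor, stood at 30528 in OB_257 and at 3.35 in BS_287. In Sox10, S100b and Gja1 they stood at opposite ends of the tumour libraries. Slc1a3, a glutamate transporter of astrocytes, stood at 88.4 in OB_257 and 11447 in BS_287, both below every other tumour library. Both also lay below the others in Olig1, Olig2 (2352 and 13399), Cspg4, Pdgfra, Atp1b2 and Map2, and above them in Elavl3 (2681 and 2193). The part of these markers in the mitosis gene levels was not tested.

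**Figure D5:**
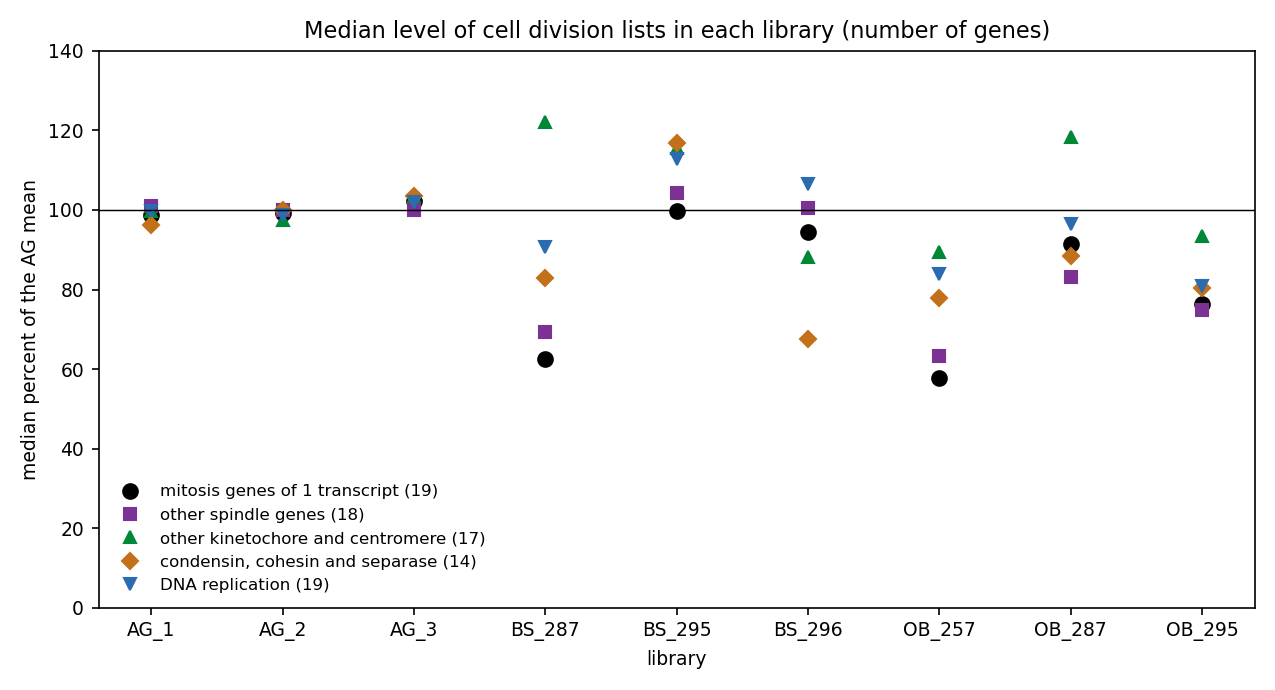
Median level of 5 cell division lists in each library as a percent of the AG mean of each gene, over the 19 mitosis genes with 1 transcript and over genes of the other lists with an AG mean of at least 50 normalized reads. For mitosis genes BS_287 (62.5%) and OB_257 (57.9%) lie lowest, other spindle genes follow them (69.4% and 63.3%), and other kinetochore genes do not in BS_287 (122%).

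Between the tumour sites no mitosis gene was called by limma, edgeR or DESeq2. Of all genes, limma and edgeR called 0% higher in OB and 0% lower, and DESeq2 1.57% higher and 0.67% lower. At an unadjusted p under 0.05 there were 2, Aurkb (-0.44 ± 0.17, limma adjusted p = 0.483) and Cenpe (0.55 ± 0.23, limma adjusted p = 0.504), in opposite directions. Aurkb was the 1 gene with every OB library below every BS library and 0 genes lay above, against 4.63% and 5.36% of all genes. The intervals leave room for sizeable differences: for Mki67 the change was -0.86 with a 95% interval of -1.90 to 0.19, and for Ccnb2 -0.75 with -1.81 to 0.31. They were narrower for Kif23 (-0.67 to 0.14), Top2a (-0.60 to 0.14) and Anln (-0.37 to 0.93). All these intervals use 1 spread per gene shared by AG, BS and OB. AG libraries differed least from one another, so the intervals between the tumour sites can be too narrow.

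Other genes of the cell division machinery were tested in lists made by role. For comparison with every list below, 19.0% of all genes were called lower and 16.0% higher in OB. In BS these shares were 19.5% and 15.6%. The lists lay on both sides of these shares, and counts in short lists are a description. Of 15 tested transcription factors of mitosis genes, OB had 1 higher and 3 lower (median -0.23) and BS 2 higher and 2 lower (median -0.16). Foxm1, which drives late cell cycle genes, stood at 8957, 8916 and 8170.4 in AG, 2688, 5401 and 5923 in BS, and 3059, 2704 and 4094 in OB, with no overlap. It fell by 1.42 ± 0.30 in OB (limma adjusted p = 0.00676), called in all 22 alternatives, and by 0.97 ± 0.30 in BS (limma adjusted p = 0.0343), a call that ended in 7 of 22 alternatives, among them AG_1, AG_2 or AG_3 left out, edgeR, upper-quartile scaling and quantile normalization. E2f2, an activating E2F factor, rose from 21.4 ± 3.31 (SD, n = 3) in AG to 73.8 ± 19.8 in BS and 70.9 ± 19.4 in OB (limma adjusted p = 0.00721 and 0.00827), and Mybl2, or B-MYB, fell in OB by 0.66 ± 0.22 (limma adjusted p = 0.0470), a call that ended in 11 of 22 alternatives.

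Of 15 tested genes of mitotic entry, 2 were lower in each tumour group: Mastl, the Greatwall kinase that holds back the phosphatase PP2A, and Melk, a kinase of dividing cells. Mastl fell by 1.22 ± 0.26 in BS and 1.39 ± 0.26 in OB (limma adjusted p = 0.00765 and 0.00397), and Melk by 1.04 ± 0.21 and 1.34 ± 0.21 (limma adjusted p = 0.00580 and 0.00154). Both were called in all 22 alternatives. Cdc25a, a phosphatase that activates CDKs, was the 1 gene higher in BS (0.55 ± 0.18, limma adjusted p = 0.0398), a call that ended in 8 of 22 alternatives, among them each AG and each BS library left out in turn. The list had medians of -0.09 in BS and -0.23 in OB.

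Of 8 spindle checkpoint genes, Mad2l1, which encodes the checkpoint effector MAD2, fell in both groups (AG 393 ± 39.2, BS 161 ± 90.8 and OB 127 ± 41.4, SD, n = 3). The changes were -1.42 ± 0.40 in BS (limma adjusted p = 0.0260) and -1.67 ± 0.40 in OB (limma adjusted p = 0.0128); Spdl1 was a further lower gene in BS. The OB call of Mad2l1 ended without AG_3, its BS call in 6 of 22 alternatives, and that of Spdl1 in 12. The 20 other kinetochore and centromere genes had 2 higher and 0 lower in both groups, Cenpn and Nsl1, whose products are both parts of the kinetochore. Cenpn rose by 0.81 ± 0.16 in BS, called in all 22 alternatives, and by 0.50 ± 0.16 in OB (limma adjusted p = 0.00494 and 0.0384), the latter called in 14 of 22 alternatives. The medians of this list were 0.15 in BS and -0.16 in OB.

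Among 19 other spindle and cytokinesis genes, 6 were lower in OB and 3 in BS, and 0 were higher. The 3 shared genes were Kif4, the chromokinesin, Ckap2, a spindle protein, and Cit, the citron kinase that works with anillin at the contractile ring. Ckap2 stood at 5696, 6014 and 6298 in AG, 2996, 3719 and 3209 in BS, and 2038, 1977 and 2755 in OB. It fell by 0.86 ± 0.17 in BS (limma adjusted p = 0.00493) and by 1.43 ± 0.17 in OB (limma adjusted p = 0.000361), called in all 22 alternatives of both. Cit fell by 1.07 ± 0.29 and 1.23 ± 0.29 (limma adjusted p = 0.0210 and 0.0115), the first call ending without AG_1, AG_2 or AG_3, as did the BS call of Kif4. The list had medians of -0.30 in BS and -0.39 in OB.

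Of 16 condensin, cohesin and separase genes, 3 were lower in OB and 2 in BS. The largest called change was that of Sgo2a in OB (-1.35) and of Ncapg2 in BS (-0.90). The cohesin subunit Smc1a was lower in both (AG 14853 ± 419.7, BS 8746 ± 1659 and OB 6723 ± 1456, SD, n = 3). The limma adjusted p of Smc1a was 0.0187 in BS and 0.00281 in OB, and its BS call ended without AG_1, AG_2 or AG_3. Of 11 other APC/C genes, Anapc2, its cullin subunit, and Fbxo5, its inhibitor EMI1, were lower in both groups, and Cdc23, an APC/C subunit, was higher in BS in all but 6 of 22 alternatives. Anapc2 fell by 0.78 ± 0.15 in BS and 0.94 ± 0.15 in OB (limma adjusted p = 0.00432 and 0.00162). Of 7 centriole genes, Nedd1, a recruiter of gamma-tubulin, was lower in both (limma adjusted p = 0.00726 and 0.00264).

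Outside mitosis, 20 tested DNA replication genes had 2 higher and 2 lower in BS and 0 higher and 4 lower in OB. Pola1, the catalytic subunit of DNA polymerase alpha, fell from 6056 ± 299 in AG to 2208 ± 1089 in BS and 1848 ± 359.7 in OB (SD, n = 3; limma adjusted p = 0.00560 and 0.00331). Of 5 CDK inhibitors, Cdkn2a and Cdkn2b, which brake entry into S phase, were lower in both groups. Cdkn2a stood at 1383, 1290.1 and 1214 in AG, 589.6, 523 and 717 in BS, and 420.0, 772 and 609 in OB, with no overlap (limma adjusted p = 0.00902 and 0.00711), and was called in all 22 alternatives. Cdkn2b stood at 2826, 2412 and 2428 in AG, 114, 59.7 and 63.1 in BS, and 1.11, 144 and 183 in OB. Its OB call was made in all 22 alternatives, and its BS call ended in 5, without AG_1, AG_2, AG_3, BS_295 or BS_296. Between OB and BS, 0 genes of these lists were called.

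Cell markers differed between AG and the tumours beside all these changes. Summed over 6 oligodendrocyte precursor markers, values were 17.4 to 20.01 in AG, with Olig2 at 0 in every AG library, and 33881 to 80010 in the tumour libraries. The markers did not move together. In BS_287 the sum was mostly Olig1 (18919) and Olig2 (13399), with Sox10 at 3.35 and Gpr17 at 0. In OB_257 it was mostly Sox10 (30528). Pdgfra lay below every AG library (3.94 to 8.71) in BS_287 (2.52) and OB_257 (1.11), and reached 97.8 in OB_295. The 5 pericyte and smooth muscle markers in the table summed to 52579 to 56031 in AG, nearly all Acta2, and to 808 to 2776 in tumours, nearly all Notch3, which was higher there (18.7 to 30.5 in AG, 761 to 2767 in tumours). The 3 ependymal markers summed to 2072 to 2551 in AG and 72.1 to 228 in tumours, mostly Foxj1. The 7 neuron markers summed to 1062 to 1089 in AG and 4486 to 9613 in tumours. The 8 astrocyte markers summed to 5756 to 6295 and 8702 to 41099, with members moving apart: Gja1 was lower in OB (352.7 against 5154 in AG) and Atp1b2 higher in both groups (7976 in BS and 5139 in OB against 7.24). The 4 endothelial markers summed to 921 to 1035 and 11.1 to 242, where Flt1 made up the AG sum (910.5 to 1027) and Kdr much of the tumour sums (6.63 to 242, against 7.88 to 10.8 in AG). Of 9 microglia and macrophage markers only Csf1r and Cd68 were in the table, at 30.9 to 102 together, and the 4 erythroid markers are not analysed here. The part of these cell differences in the mitosis gene changes was not tested.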

How the data were processed

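RNA of 9 libraries, 3 for each of AG, BS and OB, was made into stranded TruSeq libraries and read on a HiSeq3000, per the labels' protocols. HISAT2 2.1.0, Subread 1.6.2, featureCounts, bcl2fastq 1.8.4, DESeq2 1.20.0 and the build mm9 are named, per the submitters' processing notes. Which annotation and strand setting were counted is not given in the sources used here. In all, the authors deposited 1 table of normalized values (unit: signal, reads divided by a size factor per library) for 16260 RefSeq transcripts. Dividing by the size factors read off the table gave whole reads for 100% of values within a tolerance of 0.05. RefSeq named 16202 transcripts, GENCODE 41, and 17 had no name. Entries of a symbol were summed to 14771 genes, and 10576 with at least 10 normalized reads in at least 3 libraries were tested.

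Group means were compared with limma 3.58.1 (R 4.3.3, trended variance) on log2(value + 1) over all 9 libraries, with Benjamini-Hochberg adjustment over all genes tested and a threshold of 0.05. Alternatives were edgeR 4.0.16 and DESeq2 1.42.0 on the recovered reads, other pseudocounts, filters and scalings, fits of the compared groups only and left-out libraries. On recovered reads edgeR called 3724 genes in OB and 3679 in BS against AG and DESeq2 4281 and 4270, where limma called 3695 and 3712. On simulated data for OB against AG with 10576 genes, 1.8% of 2-fold and 76.6% of 8-fold changes were called. The simulation changed only a small part of the genes and gave all genes of a group the same dispersion. Both differ from these data, so the shares do not carry over to them. The share of small changes missed in these data was not tested.

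The members and lists were chosen with earlier results of these data known. All members are named. Per other list and comparison, up to 4 called genes with the largest change and a mean of at least 50 normalized reads were eligible. Slc1a3, Kdr and Pdgfra were chosen after their values were seen. Promoter windows of build GRCm38.p6 were searched for motifs on both strands with Python 3.11.15. Their coordinates belong to that build and were not joined with the mm9 table.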

Additional observations from a re-analysis of the deposited data

How the results depend on the processing

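The fall of Anln and Kif23 held in every alternative run in both comparisons with AG. Top2a, not called as reported, turned to higher under quantile normalization, by 0.47 in OB (limma adjusted p = 0.0479) and 0.57 in the mean of both tumour groups (limma adjusted p = 0.0104); the cause was not tested. Mitosis genes called lower in OB numbered 3 with upper-quartile scaling, 2 with quantile normalization and 2 to 6 with a library left out, against 5. Of all genes, 15.8%, 16.5% and 13.2% to 21.2% were called lower in OB in these settings, against 19.0%. In BS the lower mitosis genes numbered 2 to 6 with a library left out, against 4. In the mean of both groups they numbered 3 with either scaling and 2 to 6 with a library left out, against 6. With a library left out, 13.2% to 22.6% of all genes were called lower in BS and 15.4% to 24.2% in the mean. In the mean, upper-quartile scaling called 18.4% of all genes lower and quantile normalization 19.2%, against 22.6%. Mitosis genes called higher numbered 2 with quantile normalization and 0 to 1 with a library left out in BS and in the mean of both groups. In OB they numbered 1 with either scaling and 0 to 1 with a library left out. Quantile normalization called 17.7% of all genes higher in BS, 21.5% in the mean and 17.5% in OB, and upper-quartile scaling 20.4% in OB. With a library left out, these shares were 9.74% to 18.5% in BS, 12.3% to 21.6% in the mean and 10.5% to 18.2% in OB. Over all genes the calls with a library left out ran from 2502 to 4164 in OB, 2427 to 4353 in BS and 2936 to 4846 in their mean, lowest where an AG library was missing. Between OB and BS, 0 calls became 4 with a pseudocount of 0.5, 6 with 5, 3 with quantile normalization, 237 with DESeq2, 2 with no trend in the variance, 69 without OB_257 and BS_287, and 0 to 96 with 1 library left out. Titles share a number in BS_287 and OB_287 and in BS_295 and OB_295. With this number as a replicate block, 131 genes but 0 mitosis genes were called between the sites; the deviations of same-numbered libraries correlated at 0.07 and 0.30, and those of BS_296 and OB_295, whose numbers differ, at 0.29. The labels used here do not say what the number marks. Aurka, Ttk, Cenpa and Kif20a, with 21 to 68 reads in all libraries together, were not tested.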
